A study of Mus musculus with 12 samples.

Results

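The comparison described here is the genotype by TNF interaction: how far the transcript difference between Klf6-deleted and control macrophages with TNF departs from the difference between the same genotypes without TNF. It uses all 12 of the 12 libraries of the series and the genes listed in both of its deposited tables, which are 19868 of 24465 gene identifiers. Of these, 13062 genes with at least 1 CPM (a read count scaled to a library total of 1000000) in at least 3 libraries were tested. The cells were mouse bone marrow-derived macrophages, which are grown in culture from marrow progenitors, and total RNA was sequenced after removal of ribosomal RNA. The groups were Lyz2cre-Control, Klf6fl/fl:Lyz2cre-Control, Lyz2cre-TNF and Klf6fl/fl:Lyz2cre-TNF, with 3 libraries each. Both genotypes carried the Cre recombinase in the lysozyme 2 gene, which is active in myeloid cells, and only Klf6fl/fl:Lyz2cre cells also carried floxed Klf6, so the control cells express Cre as well. They are called Lyz2cre and Klf6-deleted below. The TNF groups received TNF at 10 ng/ml for 6 h, and the groups labelled Control are taken as not given TNF. The sources used here do not say if replicate libraries stand for separate animals or cultures, so p-values cover the spread between these libraries alone, which may be technical.

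KLF6, a Krüppel-like zinc-finger protein that binds DNA, is known to promote inflammatory gene expression in macrophages. TNF binds its receptors on macrophages and activates NF-kB and MAP kinases within minutes. In these cells a later wave follows, in which small amounts of secreted interferon beta act back on the interferon receptor, and the Janus kinases and STAT factors then induce antiviral effectors, interferon-inducible GTPases, chemokines and antigen presentation genes. The interaction asks, gene by gene, whether this response and the baseline expression depend on Klf6 to the same degree.

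Values of genes are normalized counts, which are reads divided by the library's size factor, and are listed in the order of the replicate numbers. The 2 tables were normalized separately, so values were compared between genotypes within a condition. The genotype effect is the log2 difference of Klf6-deleted against Lyz2cre libraries, taken as log2(value + 1), so that changes of low genes are understated. The interaction is the genotype effect with TNF minus the genotype effect without TNF, on the same log2 scale, and any scale factor between the tables cancels from it. A negative interaction means that Klf6-deleted cells stood lower, relative to control cells, with TNF than without. Genes were called at an adjusted p below 0.05 in limma, with Benjamini-Hochberg adjustment over all 13062 genes.

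The libraries held 16925666 to 23386570 reads on genes, and replicates lay close together, with the leading principal component holding 69.7% of the variance. Klf6 stood at 10055, 9984 and 10314 in Lyz2cre and 7004, 7405 and 6894 in Klf6-deleted libraries without TNF. With TNF Klf6 stood at 7622, 7155 and 7564 in Lyz2cre and 4211, 4133 and 4139.9 in Klf6-deleted libraries. The genotypes did not overlap in either condition, and the reduction was larger with TNF (interaction -0.33, standard error 0.0525, adjusted p = 3.3e-05). These are values of the whole gene, which can include exons outside the floxed part, so they do not measure how far Klf6 was deleted. Lyz2, which carries Cre and can share reads with its near-identical neighbour Lyz1, had an interaction of 0.98 with lower values in Klf6-deleted cells in both conditions. Of the 21 macrophage identity markers all had reads in every group, and together they took 2.17 to 2.19% of reads in untreated Lyz2cre, 1.49 to 1.54% in untreated Klf6-deleted, 1.65 to 1.66% in TNF-treated Lyz2cre and 1.53 to 1.54% in TNF-treated Klf6-deleted libraries. The 22 stromal markers, genes of the marrow fibroblasts that such cultures can hold, also had reads in every group and took 0.0335 to 0.0397%, 0.50 to 0.534%, 0.0108 to 0.0134% and 0.0487 to 0.0571% of reads in the same order. Their part in the results below was not tested. Of 15 monocyte and progenitor markers 14 or 15 had reads in each group, with Mpo at 0 in TNF-treated Lyz2cre libraries, and their share in the same order was 0.0836 to 0.0899%, 0.127 to 0.139%, 0.0172 to 0.0191% and 0.0320 to 0.0369%.

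The interaction was called for 6392 of 13062 genes (48.9%), of which 3145 were positive (24.1% of genes tested) and 3247 negative (24.9%). A size of at least 2-fold was reached by 2200 of the called genes (16.8%), 939 positive (7.19%) and 1261 negative (9.65%). The median interaction over all genes was 0.01. With TNF the normalized counts summed to about 16436100 to 16452400 in Klf6-deleted and 20260800 to 20892900 in Lyz2cre libraries, a wider gap than without TNF (18855400 to 19013500 and 20680800 to 20930800). Scaling to library totals instead moved that median to 0.20. Under that scaling 4930 genes were positive and 2196 negative, a share of 69.2% positive in place of 49.2%. Interactions smaller than this shift depend on the scaling. Among the 41 gene lists described below the median changed sign under it for 8, and both medians are given where that happens. Counts within each list are to be read beside 24.9% negative and 24.1% positive over all genes.

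A genotype effect was called for 6626 genes without TNF (50.7%) and for 7660 with TNF (58.6%). The genes called for the interaction were sorted by these effects, as a description, since the effects share their libraries with the interaction. Opposite effects, called in both conditions, were found for 1556 genes (11.9% of genes tested). Of these, 820 (6.28%) stood above the controls without TNF and below them with TNF, which is called turning from high to low, and 736 (5.63%) turned from low to high. A further 2047 genes had a genotype effect called only with TNF, 1063 higher and 984 lower. Another 1277 had one called only without TNF, 607 higher and 670 lower. Same-direction effects that were larger with TNF numbered 747, those that were smaller with TNF numbered 617, and 148 genes were called in neither condition. Opposite effects made up 817 of the 2200 interactions of at least 2-fold, as the plot of gene numbers by pattern shows. An effect that was not called in a condition is not shown to be absent there.

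**Figure D1:**
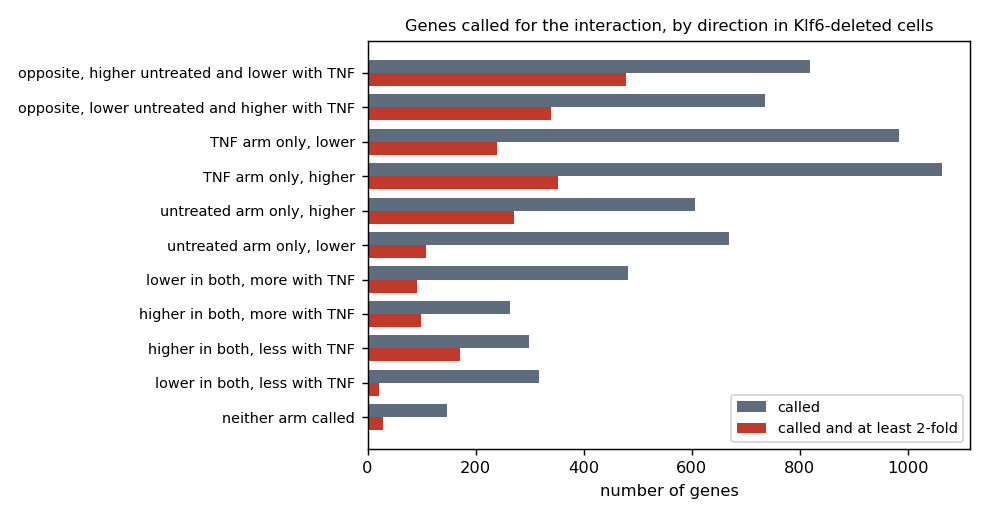
Number of genes (horizontal axis) called for the interaction in each pattern of genotype effects (vertical axis). Grey bars show all called genes and red bars those with an interaction of at least 2-fold. The longest red bar, 478 genes, is the pattern higher in Klf6-deleted cells without TNF and lower with TNF.

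**Figure D2:**
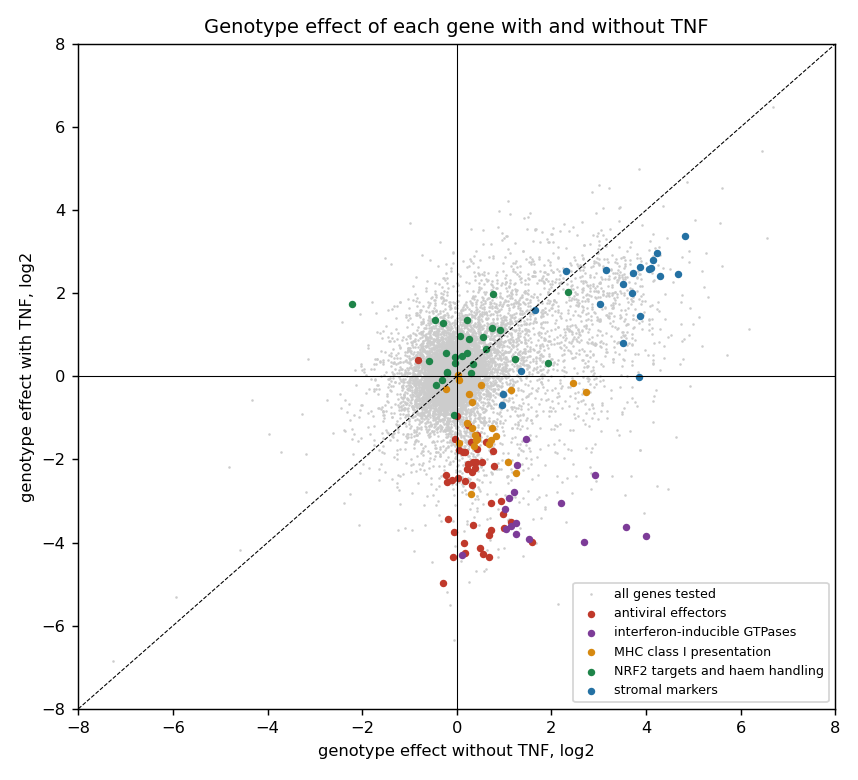
Genotype effect with TNF (vertical axis, log2) against the genotype effect without TNF (horizontal axis, log2) for the 13062 genes tested, with 5 gene lists in colour and the line of equal effects dashed. Interferon-inducible GTPases and 43 of 44 antiviral effectors lie below the line, mostly in the part that is higher without TNF and lower with TNF, while most NRF2 targets lie above it and most stromal markers are higher in both conditions.

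Interferon-inducible GTPases and antiviral effectors had the lowest median interactions of the 41 lists, and the interferon system is described in the order of its signalling. Ifnb1, which encodes interferon beta, had 24, 25 and 25 reads in TNF-treated Lyz2cre libraries and 1, 1 and 0 in TNF-treated Klf6-deleted libraries, with 0, 0 and 0 and 2, 2 and 0 in the untreated groups. With TNF the Lyz2cre group thus had 74 reads and the Klf6-deleted group 2, a ratio of 33.1 after division by the library totals, with an exact 95% interval of 8.85 to 279 that covers counting error only. The interaction was -5.13 (adjusted p = 0.00025), and its size depends on the pseudocount because the untreated libraries were at or near 0. Ifnar1 and Ifnar2, the chains of the receptor for interferon beta, had interactions of 0.01 and 0.11 that were not called, and both were lower in Klf6-deleted cells in each condition. Scaled to library totals they were called at 0.20 and 0.30. Ifngr1, a chain of the interferon gamma receptor, had a positive interaction of 0.90, being 1.98-fold lower in Klf6-deleted cells without TNF and not called with TNF. In the list of interferon ligands, receptors and Janus kinases 3 of 9 genes were negative and 3 positive, beside 24.9% negative and 24.1% positive over all genes, with a median of 0.01.

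Jak2, a kinase that signals from the interferon gamma and many cytokine receptors, stood at 10530.4, 9548 and 10524 in Lyz2cre and 3287, 3196 and 3393 in Klf6-deleted libraries with TNF. Without TNF it stood at 1007, 1119 and 1034 in Lyz2cre and 1109, 1087 and 1086 in Klf6-deleted libraries. The genotypes overlapped without TNF and were fully apart with TNF, where the Klf6-deleted libraries were low (interaction -1.69, standard error 0.0684, adjusted p = 8.2e-14). Tyk2, the kinase partner of the interferon alpha receptor, had an interaction of -0.55, while that of Jak1 was not called (adjusted p = 0.99) but was called at 0.19 when scaled to library totals. Of 16 STAT factors and cytokine feedback genes 11 were negative and 3 positive, with a median of -0.97, and 9 had opposite effects, among them the feedback inhibitors Socs1 (-4.06) and Usp18 (-3.74).

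Interferon regulatory factors split in direction, with 6 of 13 negative and 5 positive and a median of 0.18. Irf7, which amplifies interferon production, stood at 2042, 1847 and 2216 in Lyz2cre and 4661, 4234 and 4801 in Klf6-deleted libraries without TNF. With TNF Irf7 stood at 37351, 28635 and 36636 in Lyz2cre and 6809, 7301 and 6712 in Klf6-deleted libraries (interaction -3.46, standard error 0.113, adjusted p = 3.1e-15). Its order turned with TNF, as did that of Irf1 (-2.60) and of the related factor Batf2 (-3.08). Irf8, a lineage factor of monocytes and macrophages, moved the other way, at 7212, 7366 and 7278 in Lyz2cre and 5368, 5929.6 and 5395 in Klf6-deleted libraries without TNF. With TNF Irf8 stood at 920.1, 1031 and 1022 in Lyz2cre and 2080.0, 1959 and 2041 in Klf6-deleted libraries, so that the Klf6-deleted libraries were low without TNF and high with TNF (interaction 1.42, standard error 0.0691, adjusted p = 1.3e-12). Batf3, a factor of dendritic cells, had 61, 63 and 63 and 34, 40 and 53 reads in untreated Lyz2cre and Klf6-deleted libraries, and 0, 0 and 0 and 3, 2 and 8 with TNF. Its interaction of 3.12 rests on these few reads, and its size depends on the pseudocount.

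Antiviral effectors are the products that act directly on viral RNA and proteins. Of 44 measured, 43 were negative and 1 positive, with a median interaction of -2.61 against 0.01 over all genes, and 29 turned from high to low. Scaled to library totals the counts were the same and the median was -2.42. Ifi44, whose product restrains viral replication, stood at 166, 186 and 214 in Lyz2cre and 596, 531 and 582 in Klf6-deleted libraries without TNF. With TNF Ifi44 stood at 7718, 6646 and 7700.4 in Lyz2cre and 452, 513 and 426 in Klf6-deleted libraries. The 3 Klf6-deleted libraries were 3.02-fold above the controls without TNF and 15.8-fold below them with TNF (interaction -5.58, standard error 0.126, adjusted p = 2.4e-17). Ifit2, which binds viral RNA, stood at 1836, 1755 and 1912 in Lyz2cre and 2877, 3026 and 2963 in Klf6-deleted libraries without TNF. With TNF Ifit2 stood at 60147, 50225 and 60299.9 in Lyz2cre and 2636, 2958 and 2732 in Klf6-deleted libraries, again with the order of the genotypes turned (interaction -5.04, standard error 0.0836, adjusted p = 3e-19). With the tables put on a common scale by TMM factors, and with no test, Ifit2 with TNF stood 38.8 times as high as without TNF in Lyz2cre cells and 1.15 times in Klf6-deleted cells. The same ratios for Isg15, a ubiquitin-like modifier, were 58.6 and 2.30, and for Isg20, an antiviral exonuclease, 32.3 and 1.09.

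All 16 interferon-inducible GTPases measured, which attack the vacuoles of intracellular pathogens, were negative, with a median of -4.76. This held under both scalings, and 15 of the 16 turned from high to low. Gbp4 had the lowest interaction of any named gene, at 8.75, 12.1 and 15.3 in Lyz2cre and 181, 252 and 183 in Klf6-deleted libraries without TNF. With TNF Gbp4 stood at 1262, 822 and 1228 in Lyz2cre and 81.3, 77.2 and 67.1 in Klf6-deleted libraries. Klf6-deleted libraries were 16.0-fold above the controls without TNF and 14.3-fold below with TNF (interaction -7.83, standard error 0.284, adjusted p = 1.5e-14). Iigp1, a GTPase of the immunity-related family, stood at 119, 133 and 115 in Lyz2cre and 1338, 1962 and 1219 in Klf6-deleted libraries without TNF. With TNF Iigp1 stood at 3265, 2539.7 and 3325 in Lyz2cre and 331, 224 and 196 in Klf6-deleted libraries (interaction -7.20, standard error 0.235, adjusted p = 3.1e-15). On the common scale its level with TNF was 31.1 times that without TNF in Lyz2cre cells and 0.203 times in Klf6-deleted cells, where it was thus below the untreated level. Tgtp2, Tgtp1 and Gbp6 had interactions of -6.67, -5.44 and -5.30. Guanylate-binding proteins and the Tgtp pair have near-identical copies, and how shared reads were counted is not given, so values for single members are uncertain.

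Nucleic acid sensors and their adaptors were mostly negative as well, 18 of 21 with 2 positive and a median of -1.78. Zbp1, which senses Z-form nucleic acid and starts cell death, stood at 560.2, 437 and 564 in Lyz2cre and 1056, 1099.6 and 1124 in Klf6-deleted libraries without TNF. With TNF Zbp1 stood at 13965, 11862 and 13783 in Lyz2cre and 1214, 1263 and 1139 in Klf6-deleted libraries, with Klf6-deleted libraries high without TNF and low with TNF (interaction -4.53, standard error 0.113, adjusted p = 8.4e-17). Ifi204 and Ifi205, of the interferon-inducible family that binds DNA, had interactions of -3.35 and -3.70.

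**Figure D3:**
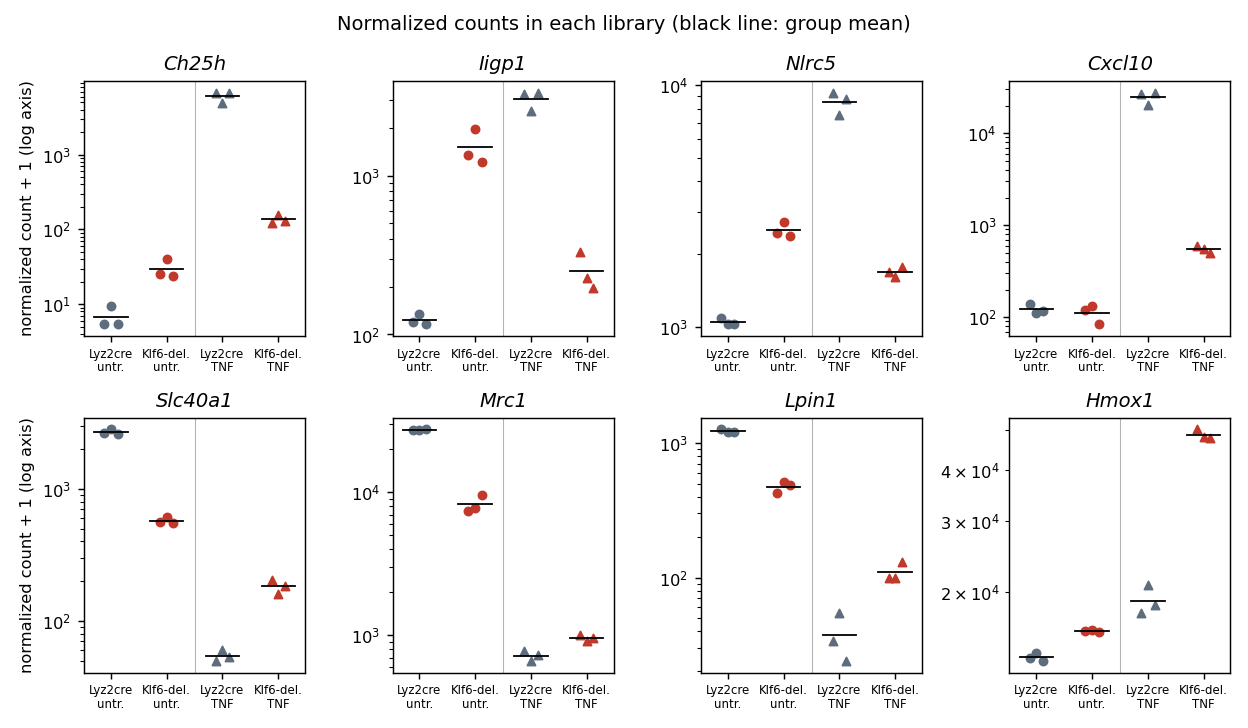
Normalized count + 1 (vertical axes, log scale) of 8 genes in each library, circles untreated and triangles with TNF, grey Lyz2cre and red Klf6-deleted, with the group mean as a black line. The tables on either side of the thin vertical line were normalized separately. The genotype order turns between the conditions for Ch25h, Iigp1, Nlrc5, Slc40a1, Mrc1 and Lpin1, while for Cxcl10 the genotypes overlap without TNF and for Hmox1 the Klf6-deleted libraries are high in both.

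Promoter sequences of 5 of these genes are shown because they differ in the pattern of their interaction. They are the 250 bases before the start of the gene, 5′ to 3′ on the gene's strand, from RefSeq (GRCm38.p6). Capitals mark matches on either strand to the core of the interferon-stimulated response element, which is GAAA, any 2 bases and GAAA, to the gamma-activated site, TTCNNNGAA, to the NF-kB motif, or to the GC box, GGGCGG. Ifnb1 (chr4:88522795-88523044, minus strand) and Cxcl10 (chr5:92348890-92349139, minus strand) had a genotype effect called only with TNF, Gbp5 (chr3:142496684-142496933, plus strand) and Isg15 (chr4:156200819-156201068, minus strand) turned from high to low, and Tpbgl (chr7:99627104-99627353, minus strand) turned from low to high.
Ifnb1: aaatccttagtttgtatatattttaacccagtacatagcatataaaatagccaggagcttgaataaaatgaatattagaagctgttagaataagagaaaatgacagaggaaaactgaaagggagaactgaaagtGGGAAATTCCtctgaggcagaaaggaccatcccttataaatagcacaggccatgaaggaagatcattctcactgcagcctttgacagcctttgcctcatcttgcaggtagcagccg
Cxcl10: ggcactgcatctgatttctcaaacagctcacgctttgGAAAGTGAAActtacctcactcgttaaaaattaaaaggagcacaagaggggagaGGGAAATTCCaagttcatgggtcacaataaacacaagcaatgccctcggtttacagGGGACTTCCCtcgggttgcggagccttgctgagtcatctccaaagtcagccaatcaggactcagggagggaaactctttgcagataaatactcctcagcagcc
Gbp5: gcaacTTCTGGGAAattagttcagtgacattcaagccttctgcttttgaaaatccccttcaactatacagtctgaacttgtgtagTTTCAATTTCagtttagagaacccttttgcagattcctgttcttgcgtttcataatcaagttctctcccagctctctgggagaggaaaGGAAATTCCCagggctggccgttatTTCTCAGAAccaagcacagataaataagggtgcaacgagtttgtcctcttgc
Isg15: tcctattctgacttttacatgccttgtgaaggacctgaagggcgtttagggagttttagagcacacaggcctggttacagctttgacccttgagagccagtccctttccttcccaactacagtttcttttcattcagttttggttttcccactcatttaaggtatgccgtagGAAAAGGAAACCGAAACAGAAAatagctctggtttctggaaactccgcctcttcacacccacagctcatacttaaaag
Tpbgl: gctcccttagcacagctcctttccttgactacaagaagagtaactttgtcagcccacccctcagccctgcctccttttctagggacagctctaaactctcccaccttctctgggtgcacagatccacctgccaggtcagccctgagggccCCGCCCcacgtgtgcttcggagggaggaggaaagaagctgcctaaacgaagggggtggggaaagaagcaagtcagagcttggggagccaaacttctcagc
In these windows Ifnb1 held 1 match to the NF-kB motif and Cxcl10 held 2 together with 1 response element core. Gbp5 held 1 response element core, 1 NF-kB motif and 2 gamma-activated sites. Isg15 held 3 matches to the response element core, each overlapping the next, in 1 run from 78 to 57 bases before the start. Tpbgl held 1 GC box and no match to the other motifs. A match is a run of letters and does not show that a factor binds there.

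Over whole lists the response element core was found before 347 of 9828 tested genes with a promoter entry (3.53%). It was found in 2.98% of all 32851 RefSeq windows of this length. A gene was counted if any of its windows matched, whereas shares of all windows count each window once, so these shares are unlike measures. It stood before 15 of 35 antiviral effectors (42.9%), 9 of 10 interferon-inducible GTPases (90.0%) and 53 of 351 genes that turned from high to low with at least a 2-fold interaction (15.1%). Among genes that turned from low to high with at least a 2-fold interaction it stood before 6 of 248 (2.42%). The NF-kB motif was found before 5.45% of tested genes and 3.90% of all windows. It stood before 8 of 19 MHC class I presentation genes (42.1%) and 5 of 12 chemokines (41.7%). Shares were lower for antiviral effectors (8.57%), GTPases (10.0%) and NRF2 targets and haem handling genes (14.3%). Of genes with at least a 2-fold interaction, 7.69% turning from high to low held it, as did 4.03% turning from low to high. The gamma-activated site, at 7.10% of tested genes and 7.02% of all windows, stood before 6 of the 10 GTPases (60.0%). Its share was 17.1% in antiviral effectors, 10.5% in MHC class I presentation genes, 9.52% in NRF2 targets and haem handling genes and 8.33% in chemokines. With at least a 2-fold interaction it was 10.8% for genes turning from high to low and 6.05% from low to high. GC boxes stood before 63.4% of tested genes and in 32.7% of all windows. For genes turning from low to high they stood before 176 of 248 (71.0%), and from high to low before 187 of 351 (53.3%). Genes with an effect called only with TNF and at least a 2-fold interaction were counted too. Here GC boxes stood before 128 of 233 higher genes (54.9%) and 95 of 179 lower genes (53.1%). The response element core stood before 5 of these 233 (2.15%) and 21 of these 179 (11.7%), so it was not particular to genes that turned. The NF-kB motif stood before 7.30% of the same higher genes and 7.82% of the lower genes. For the gamma-activated site these shares were 5.58% and 7.82%.

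Chemokines draw other leukocytes to macrophages, and 17 of 20 CXC and CC chemokines were negative with none positive, at a median of -1.50. Scaled to library totals 16 were negative and none positive. Cxcl10, a ligand of the chemokine receptor CXCR3 on T cells, stood at 138, 110.2 and 115 in Lyz2cre and 118, 131 and 82.8 in Klf6-deleted libraries without TNF. With TNF Cxcl10 stood at 26537, 20415 and 27681 in Lyz2cre and 594, 547 and 499.6 in Klf6-deleted libraries. The genotypes overlapped without TNF and differed 45.1-fold with TNF (interaction -5.35, standard error 0.193, adjusted p = 1.4e-14). Cxcl9, another ligand of the same receptor, instead turned, at 12.0, 21.8 and 9.84 in Lyz2cre and 129, 102 and 109.6 in Klf6-deleted libraries without TNF. With TNF Cxcl9 stood at 197, 148 and 182 in Lyz2cre and 40.2, 30.0 and 21.4 in Klf6-deleted libraries (interaction -5.47, standard error 0.384, adjusted p = 3.8e-10). Cxcl11, the remaining CXCR3 ligand, had 767, 455 and 684 reads in TNF-treated Lyz2cre libraries and 4, 17 and 6 in TNF-treated Klf6-deleted libraries, with at most 1 read in any untreated library. Its interaction of -6.27 therefore depends on the pseudocount, and was not called by edgeR (adjusted p = 0.18).

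Among cytokines, 11 of 20 were negative and 3 positive, with a median of -1.40. Il1rn, which encodes the antagonist of the interleukin 1 receptor, stood at 406, 305 and 312 in Lyz2cre and 1425, 1394 and 1603 in Klf6-deleted libraries without TNF. With TNF Il1rn stood at 7794, 6670.0 and 7583 in Lyz2cre and 1457, 1447 and 1299 in Klf6-deleted libraries, so that Klf6-deleted libraries were high without TNF and low with TNF (interaction -4.51, standard error 0.125, adjusted p = 3.1e-16). The death ligand gene Tnfsf10 stood at 3158, 2379 and 3098 in Lyz2cre and 74.7, 108 and 94.3 in Klf6-deleted libraries with TNF, and its genotypes overlapped without TNF (interaction -5.20, standard error 0.218, adjusted p = 1.3e-13). Il27, a cytokine that tunes T cell responses, had an interaction of -4.06.

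Median interactions of the direct TNF and NF-kB machinery lay nearer to 0, which does not mean equal levels in the genotypes. Of 19 NF-kB genes 15 were lower and 3 higher in Klf6-deleted cells without TNF. With TNF 16 were lower and 2 higher. Of 19 NF-kB subunits and inhibitors 8 were negative and 3 positive, none reached 2-fold, and the median was -0.12, turning to 0.07 with 4 negative and 7 positive when scaled to library totals. Nfkbia, the NF-kB inhibitor that NF-kB itself induces, stood at 1569, 1549.6 and 1521 in Lyz2cre and 1047, 1003 and 1157 in Klf6-deleted libraries without TNF. With TNF Nfkbia stood at 13603, 12990.0 and 14066 in Lyz2cre and 9868, 9776 and 9655 in Klf6-deleted libraries. Klf6-deleted libraries were low in both conditions, 1.45-fold and 1.39-fold, and the interaction of 0.06 was not called (standard error 0.0658, adjusted p = 0.45), but was called at 0.26 when scaled to library totals. On the common scale the level with TNF was 11.0 times that without TNF in Lyz2cre cells and 11.2 times in Klf6-deleted cells. Rela, the activating NF-kB subunit, had an interaction of -0.01 and was called, at 0.18, only when scaled to library totals. The called members of largest size were Map3k14, the kinase of the non-canonical NF-kB pathway, at 0.94, the inhibitor Tnip1 at -0.72 and Nfkbib at -0.66.

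Of 24 genes for TNF receptors and proximal signalling 13 were negative and 4 positive, with a median of -0.21 that was -0.01 when scaled to library totals. In Klf6-deleted cells 9 were lower and 3 higher without TNF, and 16 were lower and 2 higher with TNF. Tnf itself stood at 178, 153 and 188 in Lyz2cre and 267, 281 and 222 in Klf6-deleted libraries without TNF. With TNF Tnf stood at 8077, 7727 and 7721 in Lyz2cre and 4257, 3754 and 3716 in Klf6-deleted libraries, turning from high to low in Klf6-deleted libraries (interaction -1.57, standard error 0.118, adjusted p = 1e-09). Rnf31, the catalytic subunit of the linear ubiquitin ligase, and Casp8, the apical caspase of death receptors, had interactions of -1.64 and -1.05.

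MHC class I presentation genes were negative in 21 of 23 cases and positive in none, with a median of -1.93. Scaled to library totals 20 were negative and 1 positive. Of these, 19 turned from high to low. Nlrc5, the transactivator of class I genes, stood at 1092, 1031 and 1026 in Lyz2cre and 2455, 2728 and 2379 in Klf6-deleted libraries without TNF. With TNF Nlrc5 stood at 9307, 7547 and 8782 in Lyz2cre and 1692, 1608 and 1766 in Klf6-deleted libraries (interaction -3.59, standard error 0.0925, adjusted p = 1.1e-16). Tap1, a chain of the transporter that carries peptides to class I molecules, had the same order, high without TNF and low with TNF (interaction -3.15, standard error 0.0906, adjusted p = 4.9e-16), and H2-T24, a non-classical class I gene, had an interaction of -3.15. Class I genes resemble one another in sequence, so single members are uncertain.

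Among MHC class II presentation and co-stimulation genes 4 of 13 were negative and 3 positive, beside 24.9% and 24.1% over all genes. Their median of -0.07 turned to 0.13 when scaled to library totals. Cd74, the class II invariant chain, stood at 34685, 33204 and 31547 in Lyz2cre and 12799, 12066 and 13413 in Klf6-deleted libraries without TNF. With TNF Cd74 stood at 10214, 8976 and 10518 in Lyz2cre and 3704, 3986 and 3650.0 in Klf6-deleted libraries. It was low in Klf6-deleted libraries in both, 2.60-fold and 2.62-fold, and its interaction of -0.01 was not called (standard error 0.0776, adjusted p = 0.93), but was called at 0.19 when scaled to library totals. Cd40, a co-stimulatory receptor (-2.27), and Cd274, the checkpoint ligand PD-L1 (-1.72), were negative, and Cd80, a co-stimulatory ligand, was positive (1.14).

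In arginine and nitric oxide metabolism 10 of 13 genes were negative and 1 positive, with a median of -0.64. Nos2, the inducible nitric oxide synthase, stood at 10.9, 2.42 and 0 in Lyz2cre and 30.0, 22.9 and 18.7 in Klf6-deleted libraries without TNF. With TNF Nos2 stood at 2412, 1458 and 2069.6 in Lyz2cre and 314, 294 and 282 in Klf6-deleted libraries. Its Klf6-deleted libraries were high without TNF, at low values, and low with TNF (interaction -5.53, standard error 0.732, adjusted p = 3.2e-06). Arg1, which competes for the same arginine, stood at 32.8, 27.8 and 25.2 in Lyz2cre and 2451, 2524 and 3399 in Klf6-deleted libraries without TNF. With TNF Arg1 stood at 98.5, 119 and 122 in Lyz2cre and 1168, 1138 and 1127 in Klf6-deleted libraries. It was high in Klf6-deleted libraries in both conditions, 93.8-fold without TNF and 10.1-fold with TNF, so that its negative interaction is a smaller excess (interaction -3.22, standard error 0.174, adjusted p = 7.2e-12). Slc7a2, an importer of arginine, turned from high to low (-3.40).

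Prostaglandin and leukotriene genes were positive in 10 of 17 cases and negative in 3, with a median of 0.53. The 3 negative genes included the inducible enzymes of prostaglandin E2 synthesis, Ptgs2 (-3.32) and Ptges. Ptges stood at 52.5, 41.2 and 52.5 in Lyz2cre and 140.0, 121 and 132 in Klf6-deleted libraries without TNF. With TNF Ptges stood at 21536, 22280.0 and 22178 in Lyz2cre and 8207, 7668 and 7856 in Klf6-deleted libraries, turning from high to low in Klf6-deleted libraries (interaction -2.89, standard error 0.109, adjusted p = 2.7e-14). Hpgd, which inactivates prostaglandins, stood at 769, 738 and 772 in Lyz2cre and 24.2, 27.9 and 26.0 in Klf6-deleted libraries without TNF. With TNF Hpgd stood at 2.98, 7.21 and 4.59 in Lyz2cre and 0.934, 0 and 0 in Klf6-deleted libraries. It was low in Klf6-deleted libraries in both conditions. Its interaction of 2.63 depends on the pseudocount, since the TNF values are near 0, and was not called by edgeR (adjusted p = 0.68) or DESeq2 (adjusted p = 0.55).

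Ch25h, whose enzyme makes a hydroxylated cholesterol with antiviral action, had an interaction nearly as low as that of Gbp4. It stood at 4.38, 8.47 and 4.38 in Lyz2cre and 24.2, 38.9 and 22.7 in Klf6-deleted libraries without TNF. With TNF Ch25h stood at 6606, 4919.9 and 6771 in Lyz2cre and 122, 157 and 129 in Klf6-deleted libraries. Klf6-deleted libraries were 4.43-fold above the controls without TNF, at low values, and 44.2-fold below them with TNF (interaction -7.61, standard error 0.321, adjusted p = 1.5e-13). In the list of cholesterol efflux and LXR targets, to which it was assigned, 10 of 16 genes were positive and 3 negative, with a median of 0.36. Abca1, the exporter of cholesterol to apolipoprotein A-I, stood at 16311, 15345 and 15519 in Lyz2cre and 8943, 7935 and 8644 in Klf6-deleted libraries without TNF. With TNF Abca1 stood at 21326, 19536 and 20175 in Lyz2cre and 22186, 22280.4 and 23688 in Klf6-deleted libraries, turning from low to slightly high in Klf6-deleted libraries (interaction 1.05, standard error 0.0643, adjusted p = 4.9e-11). Cd5l, a secreted inhibitor of macrophage apoptosis, and the desaturase gene Scd2 were higher in Klf6-deleted cells in both conditions and more so with TNF, with interactions of 1.06 and 2.48.

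Lipid uptake and storage genes were positive in 15 of 27 cases and negative in 3, with a median of 0.36 (0.56 scaled to library totals). Fabp4, a fatty acid chaperone, stood at 1088, 1363 and 1059 in Lyz2cre and 1831, 1698 and 1637 in Klf6-deleted libraries without TNF. With TNF Fabp4 stood at 113, 154 and 178 in Lyz2cre and 752, 675 and 633 in Klf6-deleted libraries (interaction 1.66, standard error 0.174, adjusted p = 1.4e-07). Marco, a scavenger receptor, overlapped between genotypes without TNF and was high in Klf6-deleted libraries with TNF, at 127, 84.5 and 127 against 34.8, 29.9 and 22.9 (interaction 2.21, standard error 0.353, adjusted p = 3e-05). Acsl1, an acyl-CoA synthetase, was one of the 3 negative genes (-1.79). Plin2, a coat protein of lipid droplets, was 1.78-fold higher in Klf6-deleted cells without TNF and 1.76-fold higher with TNF, and its interaction of -0.02 was not called (adjusted p = 0.83), though it was at 0.18 when scaled to library totals.

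NRF2 targets and haem handling genes buffer oxidative stress and recycle iron, and 20 of 27 were positive and 4 negative, with a median of 0.36 (0.56 scaled to library totals). Slc40a1, the iron exporter ferroportin, had the highest interaction of any named gene. It stood at 2622, 2819.6 and 2591 in Lyz2cre and 558, 616 and 548 in Klf6-deleted libraries without TNF. With TNF Slc40a1 stood at 48.7, 59.7 and 52.7 in Lyz2cre and 204, 158 and 184 in Klf6-deleted libraries. Klf6-deleted libraries were 4.66-fold below the controls without TNF and 3.33-fold above them with TNF (interaction 3.96, standard error 0.142, adjusted p = 1.3e-14). On the common scale its level without TNF was 39.8 times that with TNF in Lyz2cre cells and 2.59 times in Klf6-deleted cells. Hmox1, which degrades haem, stood at 13766, 14212 and 13569.7 in Lyz2cre and 16078, 16128 and 16011 in Klf6-deleted libraries without TNF. With TNF Hmox1 stood at 17749, 20871 and 18583 in Lyz2cre and 50239.9, 48236 and 47721 in Klf6-deleted libraries, high in Klf6-deleted libraries in both and more so with TNF (interaction 1.14, standard error 0.0646, adjusted p = 1.4e-11). Osgin1, a growth inhibitor induced by oxidative stress, turned from low to high (1.82), whereas Me1, a source of NADPH, had a negative interaction (-1.61).

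The other highest interactions belonged mostly to genes that turned from low to high in Klf6-deleted cells. Ighm, the immunoglobulin heavy chain mu gene, stood at 3654, 3730.0 and 3497 in Lyz2cre and 2033, 2201 and 2347 in Klf6-deleted libraries without TNF. With TNF Ighm stood at 34.8, 16.5 and 47.0 in Lyz2cre and 253, 204 and 248 in Klf6-deleted libraries, low in Klf6-deleted libraries without TNF and high with TNF (interaction 3.65, standard error 0.306, adjusted p = 5.7e-09). Lymphocyte and mast cell markers took at most 0.00144% of reads in any library, with 10 to 14 of 14 detected in a group. Lpin1, a phosphatidate phosphatase of lipid synthesis, stood at 1268, 1201 and 1214 in Lyz2cre and 422, 515 and 484 in Klf6-deleted libraries without TNF. With TNF Lpin1 stood at 32.8, 53.5 and 22.9 in Lyz2cre and 98.1, 99.0 and 130.3 in Klf6-deleted libraries, in the same order (interaction 3.00, standard error 0.281, adjusted p = 2.7e-08). Gab1, a docking protein of growth factor receptors, stood at 727, 742 and 797 in Lyz2cre and 248, 235 and 354 in Klf6-deleted libraries without TNF. With TNF Gab1 stood at 83.6, 111 and 69.9 in Lyz2cre and 264, 282 and 254 in Klf6-deleted libraries (interaction 3.06, standard error 0.214, adjusted p = 3.5e-10). On the common scale Gab1 without TNF was 6.84 times its level with TNF in Lyz2cre cells, and 0.857 times in Klf6-deleted cells. Of the same pattern, low without TNF and high with TNF, were Tpbgl (3.27), Arhgap19 (2.98), Fam214a (2.90), Sorbs3 (2.88) and Zfp704 (2.77). Tpbgl had 2, 9 and 2 reads in TNF-treated Lyz2cre libraries, so its size depends on the pseudocount. With 1 library left out it was 2.95 to 3.84. Aatk, a kinase gene, was called only with TNF (3.59, or 3.25 to 4.19 with 1 library left out). It had 4, 15 and 3 reads in TNF-treated Lyz2cre libraries. Rasgrp2, an activator of Rap GTPases, was high in Klf6-deleted cells in both conditions (2.79). On the low side Apol9b (-7.16) and Clic5, of the chloride channel family (-5.81), turned from high to low. Apol9b had 2, 3 and 1 reads in untreated Lyz2cre libraries, so the size of its interaction depends on the pseudocount.

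Alternative activation markers, which accompany tissue-repair states, split into 7 negative and 6 positive of 15, with a median of -0.22 (-0.03 scaled to library totals). Clec10a, a galactose-binding lectin, stood at 3080.2, 2879 and 2922 in Lyz2cre and 1167, 1309.9 and 1402 in Klf6-deleted libraries without TNF. With TNF Clec10a stood at 19.9, 21.6 and 29.8 in Lyz2cre and 85.9, 93.6 and 73.9 in Klf6-deleted libraries, turning from low to high in Klf6-deleted libraries (interaction 3.00, standard error 0.179, adjusted p = 3.2e-11). Mrc1, the mannose receptor, stood at 27098, 27235 and 27589 in Lyz2cre and 7376, 7815 and 9533 in Klf6-deleted libraries without TNF. With TNF Mrc1 stood at 777, 661 and 725 in Lyz2cre and 1004, 907 and 954 in Klf6-deleted libraries, in the same order (interaction 2.14, standard error 0.102, adjusted p = 9.3e-13). Cd163, the haemoglobin scavenger receptor, and F13a1, coagulation factor XIII, had interactions of 2.32 and 2.06, were lower in Klf6-deleted cells without TNF and overlapped between genotypes with TNF. The negative ones of largest size were Arg1 and the chemokine gene Ccl24 (-3.06). Ccl24 had at most 16 reads in any untreated library, and 10, 3 and 6 in TNF-treated Klf6-deleted libraries.

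Macrophage identity markers were positive in 11 of 21 cases and negative in 6, with a median of 0.20. Csf1r, the receptor for macrophage colony-stimulating factor, stood at 101591, 100598 and 101018 in Lyz2cre and 45192, 41762 and 46819.7 in Klf6-deleted libraries without TNF. With TNF Csf1r stood at 120868, 121632 and 122097 in Lyz2cre and 79608, 78619.6 and 81314 in Klf6-deleted libraries, low in Klf6-deleted libraries in both conditions and less so with TNF (interaction 0.58, standard error 0.0554, adjusted p = 4.1e-08). Cebpa, a myeloid lineage factor, turned from low to high (1.78), as did Mertk, a receptor for apoptotic cells (1.60). Fcgr1, the high-affinity receptor for IgG, stood at 5660.3, 5754 and 5726 in Lyz2cre and 6257, 6422 and 7147 in Klf6-deleted libraries without TNF. With TNF Fcgr1 stood at 8532, 6230.4 and 8833 in Lyz2cre and 692, 744 and 648 in Klf6-deleted libraries. Its Klf6-deleted libraries were slightly above the controls without TNF, a difference that was not called, and far below them with TNF (interaction -3.69, standard error 0.127, adjusted p = 6.9e-15). Of the other Fc receptors Fcgr4 was negative (-1.77) and the inhibitory Fcgr2b positive (1.70), and over 8 measured 3 were negative and 4 positive.

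ATF4 stress and amino acid response genes, which restore amino acid supply, were negative in 17 of 24 cases and positive in 2, with a median of -0.84. Asns, asparagine synthetase, stood at 270.3, 248 and 224 in Lyz2cre and 714, 788 and 714 in Klf6-deleted libraries without TNF. With TNF Asns stood at 1396, 1683 and 1539 in Lyz2cre and 733, 729 and 747 in Klf6-deleted libraries, turning from high to low in Klf6-deleted libraries (interaction -2.63, standard error 0.109, adjusted p = 1.1e-13). Slc7a5, an importer of large amino acids, and Mthfd2, of mitochondrial folate metabolism, turned likewise (-2.73 and -2.63). In the glycolysis and hypoxia list 20 of 35 were negative and 10 positive, with a median of -0.24, and 14 were negative and 12 positive when scaled to library totals. Adm, which encodes adrenomedullin, stood at 31.7, 46.0 and 32.8 in Lyz2cre and 346, 318 and 336 in Klf6-deleted libraries without TNF. With TNF Adm stood at 15.9, 9.27 and 14.9 in Lyz2cre and 25.2, 14.5 and 25.3 in Klf6-deleted libraries, high in Klf6-deleted libraries without TNF and overlapping the controls with TNF (interaction -2.51, standard error 0.375, adjusted p = 1.4e-05). Ddit4, an inhibitor of mTORC1, was higher in both conditions and less so with TNF (-1.37), while Ndrg1, a hypoxia-induced gene, turned from low to high (1.96).

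Immediate early genes and their phosphatases split, with 12 of 27 negative and 9 positive. Dusp5 and Dusp1, which switch off MAP kinases, turned from high to low (-2.69 and -1.95). Nr4a1, an orphan nuclear receptor, stood at 171, 195 and 172 in Lyz2cre and 233, 203 and 283 in Klf6-deleted libraries without TNF. With TNF Nr4a1 stood at 54.7, 44.3 and 39.0 in Lyz2cre and 332, 368 and 440.3 in Klf6-deleted libraries, high in Klf6-deleted libraries in both conditions and more so with TNF (interaction 2.62, standard error 0.216, adjusted p = 4.4e-09). In the Krüppel-like family itself 5 of 15 were negative and 5 positive, beside 24.9% and 24.1% over all genes, with a median of 0.01. Klf7 turned from high to low (-1.32), Klf11 turned from low to high (1.29) and Klf9 was high in both, more so with TNF (1.22). Bcl6, a repressor of inflammatory genes, stood at 2008, 2174 and 2279 in Lyz2cre and 2592, 2456 and 2866 in Klf6-deleted libraries without TNF. With TNF Bcl6 stood at 4457, 4574 and 4439.6 in Lyz2cre and 3171, 3111 and 3306 in Klf6-deleted libraries, turning from high to low (interaction -0.78, standard error 0.0759, adjusted p = 4.6e-08). Over Bcl6 and its partner repressors 3 of 12 were negative and 1 positive, beside the same shares over all genes. Their median of -0.04 changed to 0.15 when scaled to library totals. Cell cycle genes were split as well, 11 of 38 negative and 13 positive, beside 24.9% and 24.1% over all genes. Named members ran from the cyclin Ccnd2 (-4.98) and the spindle factor Tpx2 (-2.04) to the centromeric histone Cenpa (2.31).

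**Figure D4:**
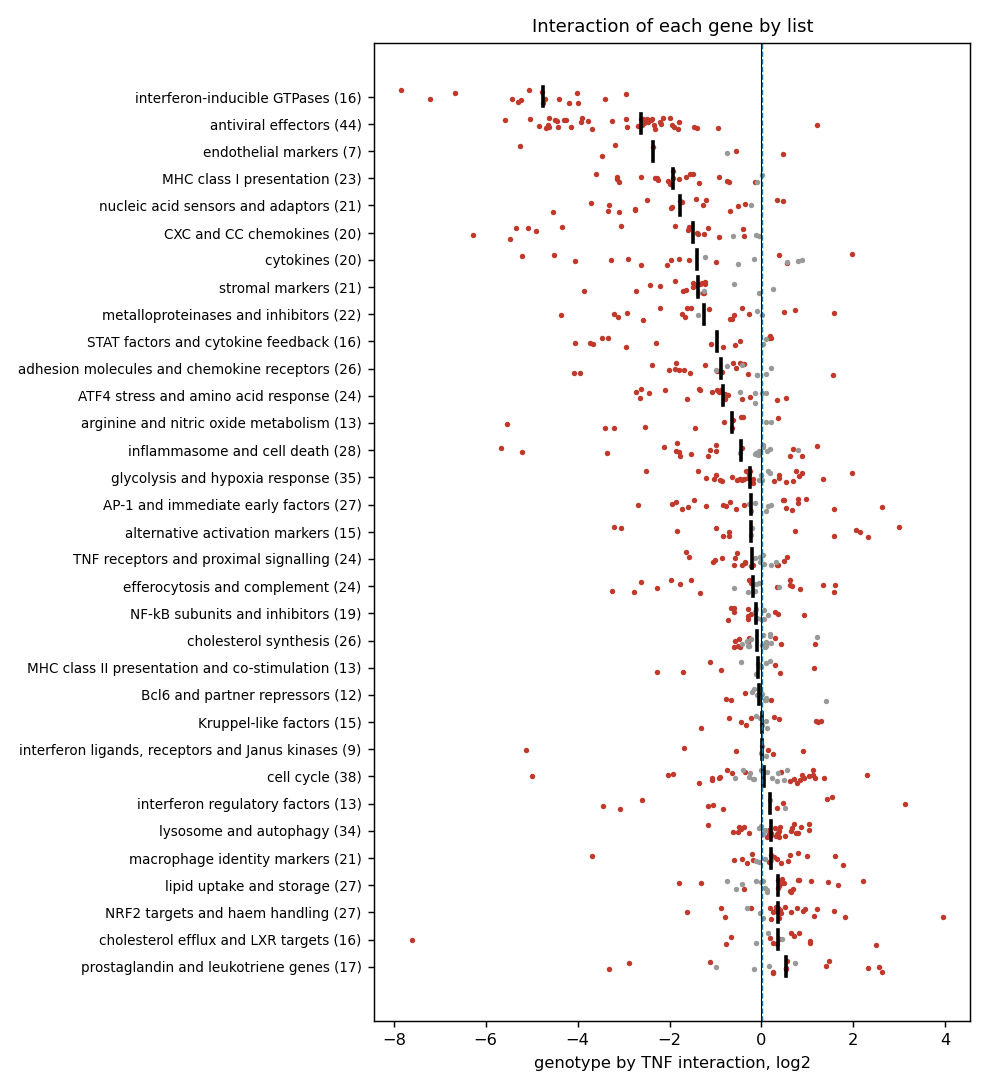
Interaction (horizontal axis, log2) of every measured gene in 33 lists, red where called and grey where not, with the list median as a black bar and the number of genes measured in brackets. The dashed line marks the median of all genes tested, 0.01. Interferon-inducible GTPases and antiviral effectors lie at the top with medians of -4.76 and -2.61, and prostaglandin and leukotriene genes at the bottom with 0.53.

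Of 26 adhesion molecules and chemokine receptors 18 were negative and 1 positive, with a median of -0.89. Vcam1, an adhesion molecule for leukocytes, stood at 399, 435 and 416 in Lyz2cre and 256, 321 and 296 in Klf6-deleted libraries without TNF. With TNF Vcam1 stood at 9361, 8493 and 9759 in Lyz2cre and 425, 407 and 405 in Klf6-deleted libraries, low in Klf6-deleted libraries in both conditions and far more so with TNF (interaction -3.95, standard error 0.105, adjusted p = 1.7e-16). The junctional molecule F11r (-4.09) and the integrin chain Itgav (-2.39) turned from high to low. In the inflammasome and cell death list 14 of 28 were negative and 4 positive, including Mlkl, the executor of necroptosis (-3.37), and Casp12 (-5.67), which had at most 15 reads in any TNF-treated library. Of 22 metalloproteinases and inhibitors 16 were negative and 3 positive. Mmp14, a membrane-bound collagenase, stood at 190.4, 126 and 136 in Lyz2cre and 1299, 1117 and 1279.5 in Klf6-deleted libraries without TNF. With TNF Mmp14 stood at 11754, 11765 and 12443 in Lyz2cre and 4671, 4819 and 5022 in Klf6-deleted libraries, turning from high to low (interaction -4.35, standard error 0.141, adjusted p = 3e-15). The interactions of Mmp13 and Mmp2 were -3.22 and -3.12.

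These matrix genes stood beside markers of other cells. Of 21 stromal markers tested 16 had a negative interaction and none a positive one, with a median of -1.38, a median genotype effect of 3.73 without TNF and of 2.42 with TNF. Pdgfrb, a receptor of fibroblasts and pericytes, stood at 111, 99.3 and 106 in Lyz2cre and 1208, 1182 and 1271 in Klf6-deleted libraries without TNF. With TNF Pdgfrb stood at 128, 87.5 and 112 in Lyz2cre and 155, 221 and 195 in Klf6-deleted libraries, high in Klf6-deleted libraries in both conditions and less so with TNF (interaction -2.73, standard error 0.195, adjusted p = 5e-10). Fbn1, a microfibril protein, was high without TNF and overlapped between genotypes with TNF (-3.87), and Lepr, a marker of marrow stroma, had an interaction of -2.42 (adjusted p = 0.024). The call of Lepr was lost in edgeR (adjusted p = 0.15), in DESeq2 (adjusted p = 0.078), with a pseudocount of 0.5 (-2.05, adjusted p = 0.13) and without any one of 4 libraries, Klf6fl/fl:Lyz2cre-Control replicate 1 (-2.39) or replicate 3 (-2.40), Lyz2cre-TNF replicate 2 (-1.74) or Klf6fl/fl:Lyz2cre-TNF replicate 2 (-2.10). Of 7 endothelial markers 5 were negative and 1 positive, including Kdr (-3.19), Cdh5 (-3.48) and Flt1 (-5.26). In TNF-treated Klf6-deleted libraries Cdh5 had 6, 6 and 8 reads and Flt1 had 6, 9 and 21. All 10 endothelial markers together took 0.0138 to 0.0149% of reads in untreated Lyz2cre and 0.0250 to 0.0256% in untreated Klf6-deleted libraries, and 0.0205 to 0.0231% and 0.0182 to 0.0191% with TNF, where Emcn was at 0 in Lyz2cre. Of 15 monocyte and progenitor markers 4 were negative, among them Vcan (-4.73) and Plac8 (-2.74). Another 3 were positive, among them F13a1, named above, and 8 were not called. Their median of -0.21 changed to 0.18 in edgeR. Over all genes 24.9% were negative and 24.1% positive. In bulk RNA fewer cells of a type and less RNA per cell cannot be told apart, and the part of these cells in the interactions above was not tested.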

How the data were processed

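RNA was measured by bulk sequencing in 12 libraries of mouse bone marrow-derived macrophages. Per the labels' protocols, the High Pure kit was used to extract total RNA, of which 150 ng went into TruSeq Stranded Total RNA libraries with Ribo-Zero Gold. The submitters' processing notes name Cufflinks, GRCm39 and mm10, without a role for each. For the aligner, the annotation, the use of strand and the handling of shared reads no statement is in the sources used, so overlapping, antisense and near-identical genes are uncertain. The deposited signal values, here called normalized counts, came in 1 table per condition. Within 0.001 reads every value was a whole multiple of what 1 read is worth in its library, as counts divided by a size factor are, and this gave the reads per library. How the authors derived the factors is not described in the sources used. Factors computed within each condition as the median over genes of a library's reads against the geometric mean of the libraries matched them. The largest relative deviation was 4.01e-11 without TNF and 5.85e-11 with TNF.

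The interaction was fitted with limma 3.58.1 in R 4.3.3 on log2(value + 1) with 4 group means over all 12 libraries, so that all groups share 1 estimate of the spread. Genes needed at least 1 CPM in at least 3 libraries and a row in both tables, and p-values were adjusted over all 13062. Ratios of TNF to untreated levels put both tables on 1 scale with edgeR's TMM factors and were not tested. The fit was tested on simulated data. Alternatives were edgeR 4.0.16 (quasi-likelihood) and DESeq2 1.42.0 on recovered reads, pseudocounts of 0.5 and 5, other filters and scalings, an additive CPM scale, replicate blocks and leaving out each library.

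The comparison, its members and the gene lists were chosen with earlier results of these data known. The text names Klf6 and Lyz2, the 12 lowest and 12 highest interactions among called genes with at least 10 CPM in a group (predicted and unnamed genes left out), the 8 largest turning each way, and up to 3 called members per list. Outside this rule are 17 of the 134 genes named, which were chosen after their values were seen. Some members of the lists are counted in them but not reported here by name. Promoters came from RefSeq (GRCm38.p6), where 9828 of the tested genes matched by symbol.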

Additional observations from a re-analysis of the deposited data

Results flagged for a closer look

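Opposite genotype effects in the 2 conditions, both called and with a called interaction in limma, were found for 820 genes that turned from high to low in Klf6-deleted cells and for 736 that turned from low to high. The interaction itself is the test of that difference. Genes listed in 1 table only stayed outside the comparison. Among 3028 genes listed for the untreated libraries only, 24 had at least 1 CPM in 3 libraries, with Tox2 the highest at up to 17.9 CPM (60 to 339 reads per library). Among 1569 listed for the TNF-treated libraries only, 8 did, with Kap the highest at up to 4.98 CPM (25 to 104 reads).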

How the results depend on the processing

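The 6392 interactions called by limma became 6394 in edgeR, 6270 in DESeq2 and 5926 to 6437 with 1 library left out. Whether replicate numbers pair the libraries could not be settled with 3 libraries per group. Deviations of same-numbered libraries of the genotypes correlated at 0.112, 0.0107 and 0.106 without TNF and -0.0307, 0.0164 and -0.0265 with TNF. Those of unlike-numbered libraries correlated at -0.146 to 0.0562 without TNF and -0.0167 to 0.0434 with TNF. A replicate block shared by all groups gave 6296 calls, against 6201 with a block within each condition, and neither changed the call of any gene named here. Requiring a 2-fold size as well left 2200 interactions (939 positive, 1261 negative), 1798 genotype effects without TNF (1460 higher, 338 lower), 2293 with TNF (1431 higher, 862 lower), and 478 genes turning from high to low and 339 from low to high. Scaled to library totals, 4930 interactions were positive in place of 3145, 2109 genes were lower without TNF in place of 3324, and with TNF 7894 were higher in place of 3844 and 1770 lower in place of 3816. The same scaling turned the sign of interactions near 0, none called before, to 0.19 for Cd74 and Jak1 and 0.18 for Plin2 and Rela. On an additive scale of CPM differences the interaction reversed for Cd5l (-754), Klf9 (-1.08), Lyz2 (-14.9) and Rasgrp2 (-5.12), since levels differ between the conditions. Genes with few reads in some groups, such as Ifnb1, Batf3, Hpgd, Lepr, Casp12, Tpbgl, Aatk, Cfb, Apol9b, Ccl24, Cdh5 and Flt1, are limited by depth.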

Other observations

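Lysosome and autophagy genes leaned to positive interactions, 22 of 34 with 7 negative and a median of 0.20 (0.40 scaled to library totals). Npc1, which moves cholesterol out of the lysosome, turned from low to high in Klf6-deleted cells (1.04), as did the proton pump subunit Atp6v0d2 (1.03), whereas Npc2, the soluble partner of Npc1, was lower with TNF only (-1.17). Efferocytosis and complement genes split into 10 negative and 8 positive of 24, with a median of -0.19 that changed to 0.01 when scaled to library totals. The 3 of largest size were complement genes. Cfb, of the alternative pathway, turned from high to low (-3.25, or -3.67 to -2.62 with 1 library left out). Its untreated side rests on 2, 0 and 3 reads in Lyz2cre and 11, 9 and 11 in Klf6-deleted libraries. C1s1 (-2.78) and the C1 inhibitor Serping1 (-2.61) were higher in both conditions and less so with TNF. Cholesterol synthesis genes were mostly not called, with 7 of 26 negative and 3 positive, beside 24.9% and 24.1% over all genes. Their median was -0.11, or 0.09 scaled to library totals. Dhcr7, of the last step of the pathway, turned from low to high (1.16), and Hsd17b7 (-0.59) and Idi1 (-0.57) had a genotype effect called only with TNF, in the lower direction. Scaled to library totals neither interaction was called, at -0.40 for Hsd17b7 (adjusted p = 0.079) and -0.38 for Idi1 (adjusted p = 0.12). The call of Idi1 was also lost without Lyz2cre-Control replicate 1 (-0.52), Klf6fl/fl:Lyz2cre-Control replicate 1 (-0.48) or Lyz2cre-TNF replicate 2 (-0.49).

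Of 8 osteoclast markers 3 were negative and 3 positive, with a median within 0.01 of 0 (0.19 scaled to library totals). Over all genes 24.9% were negative and 24.1% positive, for comparison with this list and those below. Tnfrsf11a, the receptor for the osteoclast factor RANKL, was lower with TNF only (-1.91), while Ctsk, a collagen-degrading protease, was higher in both conditions and more so with TNF (0.80). Neutrophil markers were negative in 3 of 8 cases and positive in 2 (median -0.15, or 0.04 scaled to library totals). Ly6g, Retnlg, Cxcr2 and Stfa2 were listed for the untreated libraries only and so were not tested. Dendritic cell markers were negative in 2 of 6 cases and positive in 2, and 1 of 2 measured lymphocyte and mast cell markers was positive. Mitochondrially encoded genes were negative in 2 of 10 cases with none positive, at a median of -0.17 that changed to 0.02 when scaled to library totals. The 1 sex-linked marker measured, Xist, was not called, but was called at 0.46 when scaled to library totals.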
